A study of Homo sapiens with 6 samples.

Results

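HNRNPL and 9 genes of the complexes that methylate lysine 4 of histone H3 (H3K4) were followed across 6 RNA-seq libraries of human bladder cancer cells. The genes were taken by symbol, and each of the 10 symbols named 1 of the 50868 genes with values. They comprise HNRNPL, the methyltransferases KMT2A, KMT2B, KMT2C, SETD1A and SETD1B, and the core subunits WDR5, ASH2L, RBBP5 and DPY30. In the study, the long non-coding RNA LNMAT1 is examined as a partner of hnRNPL at the promoter of the chemokine gene CCL2, where the mark H3K4me3 is followed. The libraries described here measure the RNA of these genes and hold neither protein binding nor histone marks.

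Trimethylation of H3K4 marks the promoters of active genes and is placed by SET-domain enzymes that work in large complexes known as COMPASS. Each complex holds 1 catalytic subunit and the same core of WDR5, RBBP5, ASH2L and DPY30, which the catalytic subunit needs for full activity. hnRNPL is a nuclear RNA-binding protein that recognises CA-rich RNA and is known mainly as a regulator of splicing and mRNA stability.

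UM-UC-3 and 5637 are established human bladder cancer cell lines. Cells of either line were infected with lentivirus that carried a negative control hairpin (sh-NC) or either of 2 hairpins that target LNMAT1, named sh-LNMAT1#1 and sh-LNMAT1#2, and stable populations were obtained by puromycin selection for 2 weeks, so that the controls also carry virus and selection. The lines were grown in different media, and the medium therefore cannot be told apart from the line. Each hairpin had 1 library per line, so comparisons of single libraries carry no replicate check. Levels are FPKM, fragments scaled to gene length and library depth, and the depth read from the values was 19375000 to 24707000 fragments per library. In bulk RNA, fewer cells that express a gene and less of its RNA per cell cannot be told apart.

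The library labelled 5637 sh-NC stood apart from the other 5637 libraries and resembled UM-UC-3. Over 12717 genes, its root mean square log2 difference was 0.30 from UM-UC-3 sh-LNMAT1#1, the smallest of all 15 pairs of libraries, and 1.48 from either 5637 sh-LNMAT1 library. Of 13 epithelial and urothelial markers, 9 reached 1 FPKM in both 5637 sh-LNMAT1 libraries, with summed levels of 719 and 965 FPKM. The library labelled 5637 sh-NC and the UM-UC-3 libraries had 2 such markers each, with sums from 22.4 to 31.8 FPKM, and KRT19 was at most 0.113 FPKM in these 4 libraries. None of the 4 uroplakins, defining markers of differentiated urothelium, reached 1 FPKM in any library, and the highest value was 0.556 FPKM, of UPK2 in 5637 sh-LNMAT1#2. Of 3 mesenchymal markers, ZEB1 was 8.67 to 12.7 FPKM in UM-UC-3 and in the library labelled 5637 sh-NC and at most 0.0264 FPKM in the 5637 sh-LNMAT1 libraries. The other two were present in each library, CDH2 at 17.5 to 24.8 FPKM in those 4 libraries and at 8.18 and 11.9 FPKM in the 5637 sh-LNMAT1 libraries, and VIM at 103 to 332 FPKM against 3.85 and 4.14 FPKM. Within UM-UC-3, VIM stood at 332 FPKM under sh-NC and at 116 and 155 FPKM under the hairpins. Of 9 leukocyte, endothelial and fibroblast markers, 1 reached 1 FPKM in each library, CD68 in the libraries of UM-UC-3 and the one labelled 5637 sh-NC (13.0 to 31.0 FPKM) and COL1A1 in the 5637 sh-LNMAT1 libraries (7.92 and 6.37 FPKM), and PTPRC, the common leukocyte antigen, was at most 0.0108 FPKM. The pooled fit is therefore given with and without that library, whereas the knockdown comparison in 5637 and the interaction of line and knockdown have no other 5637 control and can only be given with it.

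The hairpin target was examined first. LNMAT1, listed as LINC01296, stood at 14.2 FPKM in UM-UC-3 with the control hairpin and at 6.20 and 6.70 FPKM with the 2 LNMAT1 hairpins. The 5637 sh-LNMAT1 libraries had 4.70 and 2.14 FPKM, against 11.7 FPKM under the label 5637 sh-NC. The UM-UC-3 levels with either hairpin were thus less than 50% of the control level, and log2 changes were -1.13 and -1.02. CCL2 stood at 25.2 FPKM in the UM-UC-3 control and at 3.36 and 6.78 FPKM under the hairpins. In the 5637 sh-LNMAT1 libraries CCL2 was near the floor, at 0.058 and 0 FPKM. The library labelled 5637 sh-NC had 3.78 FPKM of CCL2, near UM-UC-3 sh-LNMAT1#1.

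The 10 genes spanned an order of magnitude in level, as shown in the plot of levels by library. Ranked by the mean over the 6 libraries, WDR5 was highest at 39.6 FPKM and HNRNPL followed at 27.2 FPKM. The other 8 means lay between 9.07 FPKM (KMT2A) and 2.71 FPKM (SETD1B). The ranges of WDR5, HNRNPL and KMT2A over the libraries did not overlap, whereas each gene from KMT2A downward overlapped the next in the order, so the order among those 8 lies within their spread. Every member passed the filter of a mean of 1 FPKM, and the values rested on at least 36.6 fragments, a lower bound taken from the shortest coding transcript of SETD1A. Of the 10 genes, 8 had the same position in the table as in GENCODE release 29, and KMT2A and SETD1A differed.

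**Figure D1:**
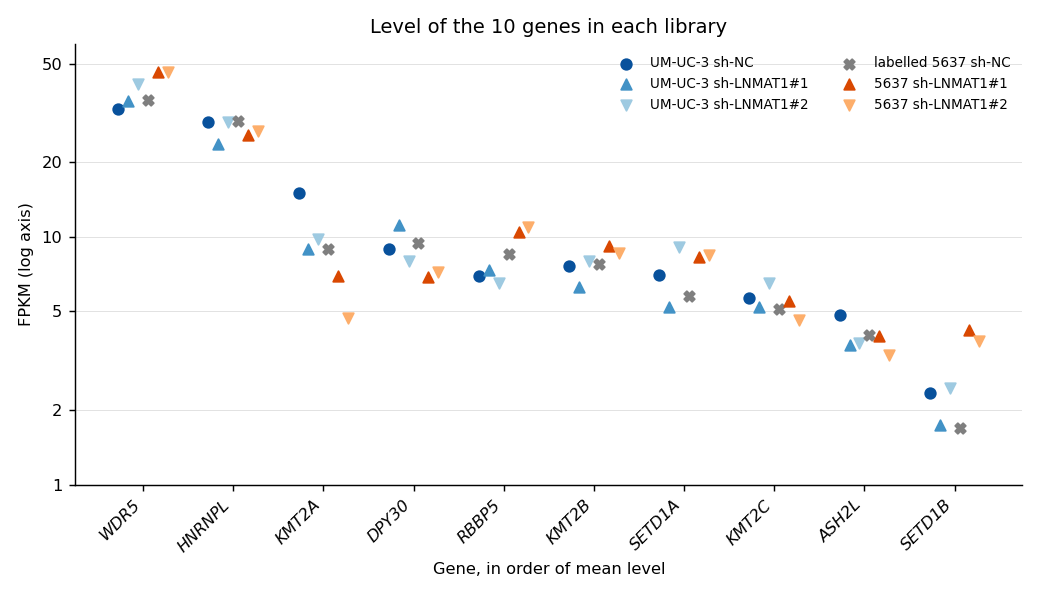
Levels of the 10 genes in FPKM on a log axis, 1 point per library, with genes in order of their mean over the 6 libraries. Blue symbols are UM-UC-3, orange symbols are 5637 and the grey cross is the library labelled 5637 sh-NC. WDR5 and HNRNPL lie above the other 8 genes in each library, KMT2A is highest in UM-UC-3 sh-NC at 15.1 FPKM, and SETD1B is highest in both 5637 sh-LNMAT1 libraries.

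HNRNPL (ENSG00000104824) lies on the minus strand of chromosome 19 of GRCh38, at chr19:38836388-38852347. In UM-UC-3, HNRNPL stood at 29.01 FPKM under sh-NC, at 23.7 FPKM under sh-LNMAT1#1 and at 29.02 FPKM under sh-LNMAT1#2. For 5637 the values were 25.7 FPKM under sh-LNMAT1#1, 26.7 FPKM under sh-LNMAT1#2 and 29.4 FPKM in the library labelled 5637 sh-NC. The highest library was 1.24 times the lowest, and the groups overlapped. The standard deviation over the 6 libraries was 0.12 on the log2 scale, a value that 2.1% of 12717 genes equalled or fell below. In each library HNRNPL was at or above percentile 89.8 of the genes kept.

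Part of this level is uncertain because HNRNPL shares sequence with other genes. Of its 50-base words, 11.2% also occur elsewhere, 7.35% in AC008982.1, an overlapping model on the same strand listed at 0 to 0.588 FPKM, and 5.39% in HNRNPLP2, a pseudogene on chromosome 15 at chr15:34489002-34490571. The deposited values list HNRNPLP2 at 6.72 to 9.15 FPKM, and how fragments that match both genes were divided is not given in the sources used here. Of 1565 aligned coding bases, 97.1% were identical between HNRNPL and HNRNPLP2. The stretch below, coding bases 781 to 1011 of HNRNPL, holds the longest run without a difference, 201 bases. It lies within chr19:38840318-38844034 on the minus strand, a span that includes introns, and was read from GENCODE transcripts. It is shown because a sequenced fragment from inside that run cannot be assigned to either gene, and capitals mark the 3 bases that differ.
HNRNPL coding sequence: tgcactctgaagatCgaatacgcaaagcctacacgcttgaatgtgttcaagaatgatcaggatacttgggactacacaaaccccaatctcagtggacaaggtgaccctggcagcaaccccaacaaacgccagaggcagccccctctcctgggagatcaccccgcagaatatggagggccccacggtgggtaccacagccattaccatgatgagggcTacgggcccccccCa
HNRNPLP2: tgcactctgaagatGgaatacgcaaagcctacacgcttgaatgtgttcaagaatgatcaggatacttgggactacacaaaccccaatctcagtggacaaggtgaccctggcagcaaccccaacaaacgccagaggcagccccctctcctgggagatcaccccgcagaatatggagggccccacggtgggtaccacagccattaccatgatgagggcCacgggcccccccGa

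Promoters are among the places where the H3K4 enzymes act, and several of the enzymes recognise unmethylated CpG through a CXXC domain or a partner that has one. The windows below cover 250 to 51 bases before the annotated start of HNRNPL and of KMT2A, chosen because their levels varied least and most among the members, by 1.24-fold and 3.22-fold between the lowest and the highest library. They are RefSeq sequences on GRCh38.p14, with each CG in capitals, at chr19:38852398-38852597 on the minus strand for HNRNPL and at chr11:118436242-118436441 on the plus strand for KMT2A.
HNRNPL promoter: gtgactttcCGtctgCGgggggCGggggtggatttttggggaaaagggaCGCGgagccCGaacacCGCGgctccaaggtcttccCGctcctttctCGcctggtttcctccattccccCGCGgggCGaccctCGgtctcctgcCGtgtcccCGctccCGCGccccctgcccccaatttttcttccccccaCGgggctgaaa
KMT2A promoter: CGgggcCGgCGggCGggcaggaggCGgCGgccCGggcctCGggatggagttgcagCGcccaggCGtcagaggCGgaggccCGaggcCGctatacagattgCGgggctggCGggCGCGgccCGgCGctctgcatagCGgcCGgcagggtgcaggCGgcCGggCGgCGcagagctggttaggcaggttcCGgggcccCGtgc

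The HNRNPL window holds 19 CG dinucleotides and the KMT2A window 27, against a median of 8 over 35116 promoter windows of the same length. A promoter entry was used for 7 of the 10 genes, and ASH2L was left out without being looked up. Among those 7, RBBP5 (7 CG) was the gene whose first listed start was nearest to that median. No histone or methylation measurement accompanies these windows.

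Knockdown of LNMAT1 in UM-UC-3 was the first comparison, and it addresses whether the RNA of hnRNPL and of the H3K4 machinery differs when LNMAT1 is reduced. No member reached a 2-fold difference from sh-NC with both hairpins. Over all 12025 genes kept in UM-UC-3, 1.08% were higher and 0.358% lower by that rule, so a count of 0 among 10 is near the background. Differences were taken in log2(FPKM + 0.5), a scale on which changes of low genes come out too small. Both hairpins were compared with the same sh-NC library, so their differences are not independent of each other. The median of the members' mean changes was -0.061, beside 0.002 over all genes, and the median size without regard to sign was 0.123, beside 0.264.

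HNRNPL differed from UM-UC-3 sh-NC by -0.29 with sh-LNMAT1#1 and by less than 0.01 with sh-LNMAT1#2. The lower value was thus seen with 1 of the 2 hairpins. In the comparison with the library labelled 5637 sh-NC, HNRNPL differed by -0.19 and -0.14.

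KMT2A (ENSG00000118058, chr11:118436490-118526832, plus strand), also known as MLL1, methylates H3K4 at the promoters of developmental genes including the HOX clusters. In UM-UC-3, KMT2A stood at 15.1 FPKM under sh-NC, at 8.96 FPKM under sh-LNMAT1#1 and at 9.80 FPKM under sh-LNMAT1#2. The library labelled 5637 sh-NC had 8.93 FPKM, and 5637 cells had 6.95 FPKM under sh-LNMAT1#1 and 4.69 FPKM under sh-LNMAT1#2. UM-UC-3 sh-NC was the highest of the 6 libraries. The log2 differences were -0.72 and -0.60 in UM-UC-3, both taken from that control library. Against the library labelled 5637 sh-NC, those of the 5637 hairpins were -0.34 and -0.86. In that comparison, knockdown cannot be told apart from whatever sets the labelled control apart. KMT2A was the only member past 1.5-fold in one direction with both hairpins in UM-UC-3, a limit that 2.4% of all genes passed downward and 4.39% upward. Of the 50-base words of KMT2A, 17.4% also occur in other genes, most of them in the overlapping model AP001267.5. That model is not among the genes with values.

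ASH2L (ENSG00000129691, chr8:38105242-38144076, plus strand), the core subunit that binds DPY30, was the other member below the UM-UC-3 control under either hairpin. In UM-UC-3 it stood at 4.82 FPKM under sh-NC and at 3.66 and 3.73 FPKM under the 2 LNMAT1 hairpins, and the log2 differences were -0.35 and -0.33. The 5637 sh-LNMAT1 libraries had 3.96 and 3.34 FPKM, against 4.01 FPKM in their labelled control, differences of -0.01 and -0.23. Neither hairpin reached 1.5-fold.

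WDR5 (ENSG00000196363, chr9:134135365-134159968, plus strand), the WD-repeat subunit that holds the core to the catalytic subunit, was the 1 member above the UM-UC-3 control under either hairpin. In UM-UC-3, WDR5 stood at 32.9 FPKM under sh-NC, at 35.3 FPKM under sh-LNMAT1#1 and at 41.3 FPKM under sh-LNMAT1#2. Both 5637 sh-LNMAT1 libraries were higher still, with 46.3 and 46.2 FPKM, and the library labelled 5637 sh-NC had 35.5 FPKM. The UM-UC-3 differences were 0.10 and 0.32 on the log2 scale, below 1.5-fold with either hairpin.

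The other 7 members, HNRNPL among them, differed from UM-UC-3 sh-NC in opposite directions with the 2 hairpins. By direction alone, 35.4% of all genes kept in UM-UC-3 had such opposite or null differences, 31.6% were lower with both hairpins and 33.0% higher. SETD1A (ENSG00000099381, chr16:30957294-30985116, plus strand), an enzyme that places much of the H3K4me3 at promoters, showed the widest disagreement. It went from 7.02 FPKM under sh-NC to 5.22 FPKM under sh-LNMAT1#1 and to 9.12 FPKM under sh-LNMAT1#2, log2 differences of -0.40 and 0.35. The control thus lay between the hairpins. DPY30 (ENSG00000162961, chr2:31867809-32039812, minus strand), the smallest core subunit, stood at 8.95 FPKM under sh-NC, at 11.2 FPKM under sh-LNMAT1#1 and at 7.95 FPKM under sh-LNMAT1#2. Its level is the least certain of the 10, since 50.5% of its exon bases are shared with MEMO1 on the same strand, and MEMO1 was listed at 2.42 to 4.83 FPKM.

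KMT2B (ENSG00000272333, chr19:35718019-35738878, plus strand), the closest relative of KMT2A, had 7.63, 6.29 and 7.97 FPKM in UM-UC-3, in the order of the control hairpin, sh-LNMAT1#1 and sh-LNMAT1#2. In the same order, KMT2C (ENSG00000055609, chr7:152134922-152436005, minus strand), which places H3K4me1 at enhancers, was 5.64, 5.23 and 6.50 FPKM. SETD1B (ENSG00000139718, chr12:121804180-121832584, plus strand), the relative of SETD1A, was 2.35, 1.75 and 2.45 FPKM. RBBP5 (ENSG00000117222, chr1:205086142-205122015, minus strand), a core subunit, was 6.98, 7.32 and 6.52 FPKM. In each of these 4 genes the control lay between the hairpins, and no log2 difference was past 0.35 in size.

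**Figure D2:**
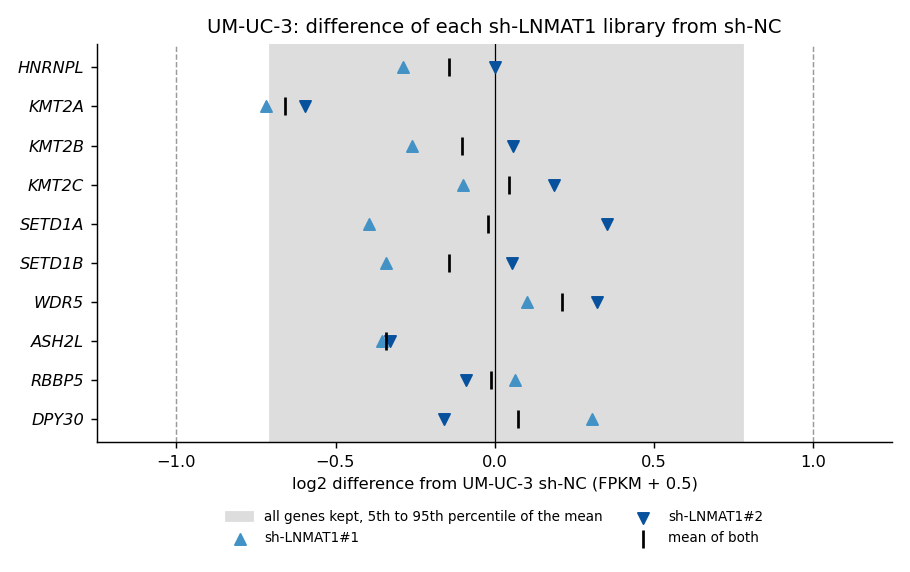
Difference of each UM-UC-3 sh-LNMAT1 library from UM-UC-3 sh-NC for the 10 genes, in log2(FPKM + 0.5). Triangles are single libraries, the vertical tick is the mean of both, dashed lines mark 2-fold and the grey band spans the 5th to 95th percentile of the mean over all 12025 genes kept, -0.71 to 0.78. KMT2A lies nearest to the lower edge of the band and no gene crosses the dashed lines.

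Pooled over both lines with limma, the 4 sh-LNMAT1 libraries against the 2 sh-NC libraries with the line as a covariate, no gene of 12717 passed an adjusted p of 0.05 (0% higher, 0% lower), while 811 had an unadjusted p under 0.05. KMT2A had a log2 difference of -0.63 (SE 0.24), with an adjusted p from limma of 0.569 and an unadjusted p from limma of 0.043. It was the only member with an unadjusted p under 0.05. HNRNPL had a difference of -0.15 (SE 0.22) with an adjusted p from limma of 0.782. WDR5 had a difference of 0.29 (SE 0.22) and ASH2L of -0.23 (SE 0.22), with adjusted p from limma of 0.622 and 0.669. These values do not show that the genes were unchanged, since a standard error of 0.22 leaves differences of that size unresolved.

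Without the library labelled 5637 sh-NC, the effect was estimated within UM-UC-3 and again no gene of 12748 passed (0% in either direction), with 773 at an unadjusted p under 0.05. KMT2A was then at -0.66 (SE 0.30, adjusted p from limma 0.835) and HNRNPL at -0.14 (SE 0.25, adjusted p from limma 0.938). KMT2B, SETD1A, SETD1B, RBBP5 and DPY30 changed sign. SETD1B moved from 0.45 to -0.14, and its positive pooled value rested on that library.

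In 5637 itself, the comparison with the library labelled sh-NC gave no member past 2-fold with both hairpins, while 18.5% of 12791 genes were higher and 12.3% lower by that rule. At 1.5-fold, 28% were higher and 22.5% lower, and SETD1B was the 1 member called. SETD1B stood at 1.69 FPKM in that control and at 4.22 and 3.79 FPKM under the hairpins, log2 differences of 1.11 and 0.97. The UM-UC-3 levels of SETD1B, from 1.75 to 2.45 FPKM, were near that of the library labelled 5637 sh-NC. Over the 10 genes that library differed from UM-UC-3 sh-LNMAT1#1 by 0.13 on average in log2 size, the smallest of all 15 pairs, and from the 5637 sh-LNMAT1 libraries by 0.36 and 0.41. Knockdown and whatever sets this library apart cannot be told apart in 5637.

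Whether the response differed between the lines was tested as the interaction of line and knockdown, which rests on 1 control library in either line. No member passed, whereas the knockdown difference was called higher in 5637 than in UM-UC-3 for 9.99% of 12717 genes and lower for 8.79%. SETD1B had the largest value among the members, 1.18 (SE 0.41), with an adjusted p from limma of 0.101. The value for KMT2A was 0.06 (SE 0.43) and for HNRNPL -0.02 (SE 0.35), with adjusted p from limma of 0.935 and 0.972. Without UM-UC-3 sh-LNMAT1#2, SETD1B was at 1.378. This fit leaves 1 knockdown library in UM-UC-3 and still uses the library labelled 5637 sh-NC.

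The comparison of the lines among the 4 sh-LNMAT1 libraries uses no control library, with 2 libraries on either side. SETD1B was higher in 5637, 1 of the 10 members called, and no member was called lower. Over all 12844 genes, 20.1% were higher and 18.4% lower, so counts of 1 and 0 among 10 are near the background. SETD1B was 4.22 and 3.79 FPKM in the 5637 sh-LNMAT1 libraries and 1.75 and 2.45 FPKM in those of UM-UC-3, without overlap. The difference was 0.80 (SE 0.23) on the log2 scale, with an adjusted p from limma of 0.0442.

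That call was close to the threshold. Its adjusted p from limma was 0.0502 with the hairpin as a covariate, 0.0503 with a pseudocount of 0.1 and 0.0901 with no filter. It was 0.081 without UM-UC-3 sh-LNMAT1#1, 0.301 without 5637 sh-LNMAT1#1 and 0.237 without 5637 sh-LNMAT1#2, while the difference stayed between 0.61 and 1.00 over the leave-one-out fits. With UM-UC-3 sh-NC added to the UM-UC-3 side, the adjusted p of SETD1B from limma was 0.0262, in a fit that called 2709 of 12748 genes higher.

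RBBP5, the core subunit that pairs with ASH2L, was 10.4 and 10.9 FPKM in the 5637 sh-LNMAT1 libraries. The UM-UC-3 sh-LNMAT1 libraries had 7.32 and 6.52 FPKM, and the library labelled 5637 sh-NC had 8.52 FPKM. The 5637 sh-LNMAT1 libraries were above all others, and the difference was 0.59 (SE 0.19) with an adjusted p from limma of 0.0616. KMT2A was lower in 5637 by the same comparison, at -0.67 (SE 0.25) with an adjusted p from limma of 0.087. With UM-UC-3 sh-NC added, the adjusted p from limma was 0.0327 for RBBP5 and 0.0479 for KMT2A. That fit called 2709 of 12748 genes higher and 2757 lower. Without UM-UC-3 sh-LNMAT1#1, that of RBBP5 was 0.0463.

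HNRNPL was nearly equal between the lines, with 25.7 and 26.7 FPKM against 23.7 and 29.02 FPKM, and its log2 difference was under 0.01 in size with an SE of 0.20. ASH2L differed by -0.02 (SE 0.21). WDR5 was at 0.27 (SE 0.19), KMT2B at 0.31 (SE 0.21), SETD1A at 0.26 (SE 0.30), KMT2C at -0.19 (SE 0.22) and DPY30 at -0.39 (SE 0.24), none of which passed with limma. KMT2B had 9.19 and 8.60 FPKM in the 5637 sh-LNMAT1 libraries, beside 7.73 FPKM in the one labelled sh-NC. KMT2C had 5.53, 4.601 and 5.13 FPKM in the same order, SETD1A 8.28, 8.45 and 5.75 FPKM, and DPY30 6.90, 7.23 and 9.45 FPKM. By position alone, 4 of the 10 genes were higher in both 5637 sh-LNMAT1 libraries than in all 3 UM-UC-3 libraries (KMT2B, SETD1B, WDR5 and RBBP5) and 2 were lower (KMT2A and DPY30). Of all 12717 genes, 31.4% were higher and 34.5% lower by that rule, so counts of 4 and 2 among 10 are near the background.

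**Figure D3:**
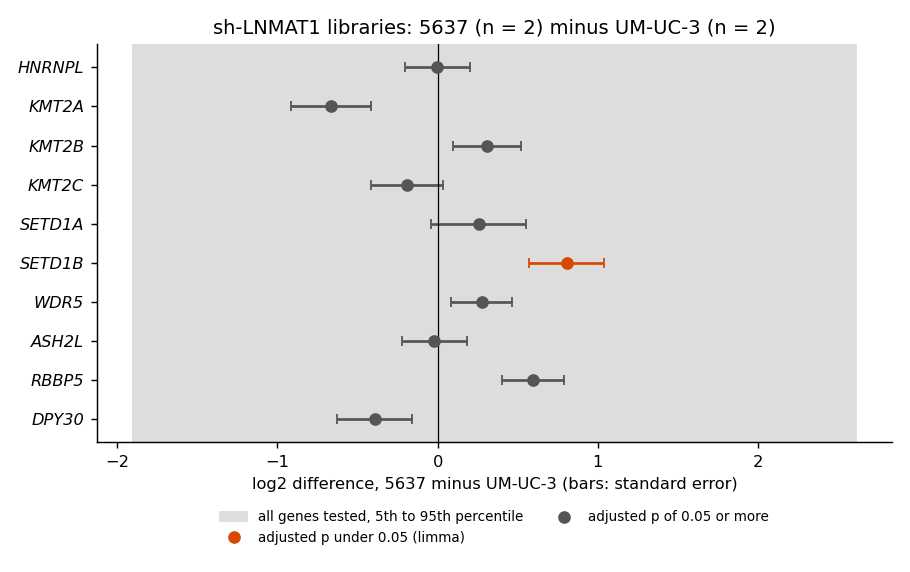
Difference between the lines among the sh-LNMAT1 libraries, 5637 minus UM-UC-3 in log2(FPKM + 0.5), with 2 libraries on either side. Points are limma estimates, bars are 1 standard error and the grey band spans the 5th to 95th percentile over all 12844 genes tested. SETD1B at 0.80 is the 1 gene with an adjusted p under 0.05, and HNRNPL and ASH2L lie at 0.

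The 5 methyltransferase genes were also summed in each library. Their sum was 37.7 FPKM in the UM-UC-3 control and 27.5 and 35.8 FPKM under the hairpins. The 5637 sh-LNMAT1 libraries had 34.2 and 30.1 FPKM, against 29.2 FPKM in their labelled control. These sums overlapped between the lines. KMT2A made up 40.0% of the sum in UM-UC-3 sh-NC, 32.7% with sh-LNMAT1#1 and 27.3% with sh-LNMAT1#2. Its share was 30.5% in the library labelled 5637 sh-NC and 20.3% and 15.6% in the 5637 sh-LNMAT1 libraries. SETD1A and SETD1B together made up 24.8%, 25.4% and 32.3% in UM-UC-3, 25.4% in the library labelled 5637 sh-NC, and 36.6% and 40.6% in the 5637 sh-LNMAT1 libraries. The share of KMT2A was thus lower in both 5637 sh-LNMAT1 libraries than in the other 4 libraries, and that of the SETD1 pair was higher. These shares describe RNA levels per length and were not tested.

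**Figure D4:**
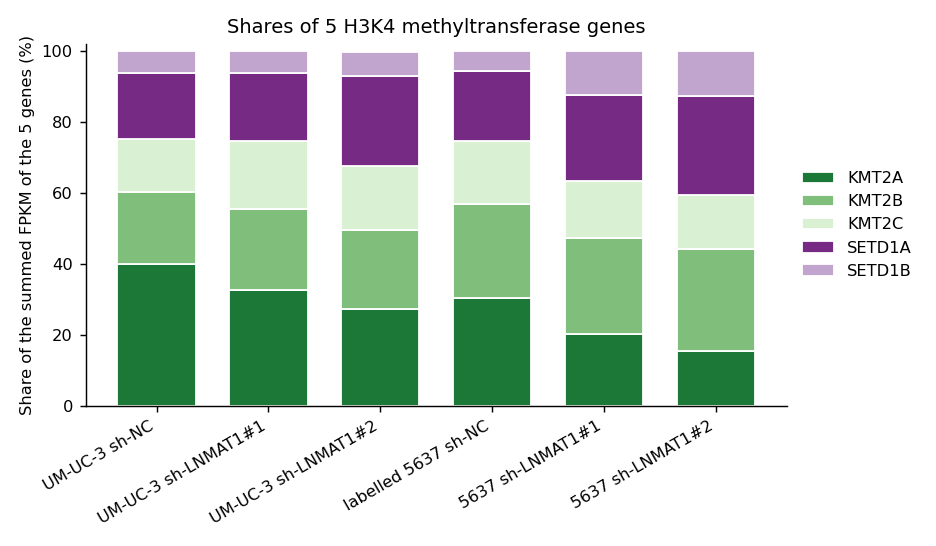
Share of each of 5 H3K4 methyltransferase genes in their summed FPKM, in percent, 1 bar per library. KMT2D is not among the 5 genes. The share of KMT2A runs from 40.0% in UM-UC-3 sh-NC to 15.6% in 5637 sh-LNMAT1#2, and that of SETD1B is 12.4% and 12.6% in the 5637 sh-LNMAT1 libraries and 5.8% to 6.8% elsewhere.

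Among the core genes, WDR5 made up 61.3% to 69.4% of the summed FPKM of the 4 subunits in every library. The sum was 53.6 to 59.5 FPKM in UM-UC-3 and 67.6 and 67.7 FPKM in the 5637 sh-LNMAT1 libraries, and the one labelled 5637 sh-NC had 57.5 FPKM. RNA levels per length do not give the proportions of the proteins.

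The other genes of H3K4 methylation were taken from 4 lists, 38 genes of which 36 passed the filter. In UM-UC-3, 1 of the 36 was 2-fold higher with both hairpins and none was lower. That gene was SETD7, a methyltransferase that acts on H3K4 and on other proteins, at 2.27 FPKM in the control and 9.45 and 8.10 FPKM with the hairpins. In the opposite direction, the library labelled 5637 sh-NC had 10.1 FPKM of SETD7 and the 5637 sh-LNMAT1 libraries had 4.87 and 6.65 FPKM. The interaction for SETD7 was -2.52 (SE 0.41) with an adjusted p from limma of 0.0159, a value that uses that library.

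The 13 other COMPASS subunits had a median UM-UC-3 change of -0.35, beside 0.00 over all genes, and none passed 2-fold or 1.5-fold with both hairpins. KMT2D, the partner paralog of KMT2C, had 16.7 FPKM in the UM-UC-3 control and 9.23 and 14.4 FPKM under the hairpins. The lowest mean change was that of MEN1, which encodes menin, the partner of KMT2A and KMT2B, and it came from 1 hairpin, with 4.31 FPKM in the control, 1.401 FPKM under sh-LNMAT1#1 and 4.35 FPKM under the other hairpin. The highest was that of BOD1, at 11.7, 18.0 and 15.9 FPKM. ING3, a reader of H3K4me3 within the NuA4 acetyltransferase complex, had the lowest mean change of the 13 readers, at 4.79, 1.67 and 2.54 FPKM. SPIN1, which also reads this mark, had the highest, at 7.25, 12.0 and 11.2 FPKM, and both passed 1.5-fold. Among the 6 demethylases none passed 1.5-fold, and KDM5A, which removes H3K4me3, had the lowest mean change at 9.75, 6.43 and 6.53 FPKM and RIOX1 the highest at 5.00, 4.86 and 8.67 FPKM.

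Between the lines, 10 of the 36 genes were higher in 5637 and 3 lower by limma, shares to be read against the 20.1% and 18.4% of all genes. KDM6A, a demethylase of another lysine of histone H3 that sits in the KMT2C and KMT2D complexes, was 12.8 and 12.8 FPKM in the 5637 sh-LNMAT1 libraries and 2.99 and 4.24 FPKM in those of UM-UC-3, a log2 difference of 1.71. KDM1A (LSD1), which removes H3K4me1 and H3K4me2, was 70.6 and 73.9 FPKM against 24.5 and 20.7 FPKM, a difference of 1.66 with an adjusted p from limma of 0.0024. Its paralog KDM1B went the other way, at 7.10 and 5.93 FPKM against 17.2 and 15.7 FPKM, a difference of -1.27. PHF8, a demethylase that reads H3K4me3, had the largest difference of the lists at 1.80, and ING4 had the lowest among the readers at -0.9996. PSIP1 (LEDGF), a chromatin partner of KMT2A, had the lowest difference of the COMPASS list at -1.03 and did not pass. In the library labelled 5637 sh-NC, KDM6A was 3.03 FPKM, KDM1A 22.3 FPKM and KDM1B 17.6 FPKM, near the UM-UC-3 levels.

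**Figure D5:**
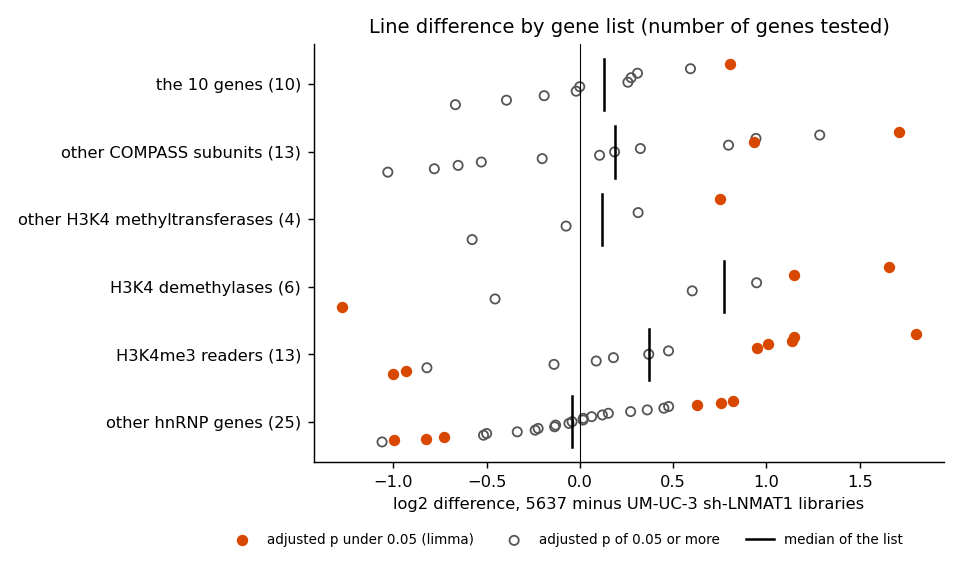
Difference between the lines among the sh-LNMAT1 libraries by gene list, in log2(FPKM + 0.5), 1 point per gene tested, with the number of genes in parentheses. Filled points passed an adjusted p of 0.05 with limma and the black tick is the median of the list. The 10 genes hold 1 filled point and span -0.67 to 0.80, and the 36 other genes of H3K4 methylation hold 13.

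Of the 25 other hnRNP genes, none was 1.5-fold different with both hairpins in UM-UC-3. Their median change there was -0.10. HNRNPLL, the paralog of HNRNPL, had 5.50, 6.77 and 4.67 FPKM in the UM-UC-3 libraries, with the control first. Both 5637 sh-LNMAT1 libraries were lower, with 3.36 and 4.26 FPKM, and the one labelled 5637 sh-NC had 5.83 FPKM. HNRNPL was 3.49 to 7.64 times HNRNPLL per length. HNRNPA1 was 38.4, 21.2 and 45.4 FPKM in the UM-UC-3 libraries in that order, and HNRNPA3, whose mean log2 change was the lowest of the list, was 19.3, 6.39 and 14.9 FPKM, so that both were lowest with sh-LNMAT1#1. HNRNPA0 had the highest mean change, at 20.1, 31.5 and 26.9 FPKM.

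Between the lines, 3 of the 25 hnRNP genes were higher in 5637 (HNRNPA2B1, HNRNPD and PTBP1) and 3 lower (HNRNPH3, SYNCRIP and PCBP2), below the 20.1% and 18.4% of all genes. HNRNPA2B1 was 63.7 and 67.1 FPKM in the 5637 sh-LNMAT1 libraries and 31.3 and 43.2 FPKM in those of UM-UC-3. SYNCRIP, which encodes hnRNPQ, was 20.9 and 23.6 FPKM against 34.4 and 46.0 FPKM, a log2 difference of -0.83 with an adjusted p from limma of 0.037. HNRNPH2 had the lowest difference at -1.06 but did not pass, as its 5637 levels were 3.94 and 51.6 FPKM.

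The genes whose profile over the 6 libraries lay nearest to that of HNRNPL, by the root mean square difference of centred log2 values among 12716 genes, were NUFIP1P at 0.04, POLDIP3 at 0.04 and YIPF4 at 0.05. POLDIP3, which encodes a protein of mRNA export and translation, had 12.8, 10.2 and 11.7 FPKM in the UM-UC-3 libraries. Under the 5637 labels there were 12.4 FPKM with sh-NC and 11.3 and 11.2 FPKM with the LNMAT1 hairpins. With so small a spread in HNRNPL, this nearness describes genes that varied little.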

How the data were processed

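RNA of UM-UC-3 and 5637 cells was sequenced in 6 libraries, 1 per hairpin and line, prepared with a stranded mRNA kit. The authors deposited FPKM per gene. The submitters' processing notes name HISAT2 and hg38, and the counting program and annotation are not given in the sources used here. The table has 50869 rows, of which 50868 hold values. Samples were grouped by their labels, with no unassigned sample and 0 unused columns.

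Depth was read from single-exon genes, whose FPKM times length came out as whole fragments within 0.02 in at least 99.95% of values. Limits from it cover counting error only. Fold changes were differences of log2(FPKM + 0.5) for genes that averaged 1 FPKM or more over the libraries compared, since FPKM are not counts. Within a line, a gene was called when both hairpins differed 2-fold one way, without a test. Across libraries, limma 3.58.1 in R 4.3.3 (lmFit, eBayes with trend) was used with Benjamini-Hochberg adjustment over all genes tested and an adjusted p of 0.05, leaving 3 residual degrees of freedom in the pooled fit and 2 in the fits of lines and interaction. The labels do not say that libraries come from separate cultures, so p-values measure the spread between these libraries. The fits were run on simulated data with changes larger than those of the members, so that run does not cover differences of the members' size. Python 3.11.15 was used with pandas 2.3.3 and numpy 2.4.6.

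Members and lists were chosen with earlier results of these data known. All 10 members are named, with LINC01296, CCL2, HNRNPLL, SYNCRIP, HNRNPA1 and KMT2D, the highest and lowest gene of each companion list in UM-UC-3 and between the lines, and the 3 genes nearest to HNRNPL. Others were named after their values were seen. All 102 listed symbols matched, RIOX1 by its identifier. Shared sequence was counted as 50-base words in GENCODE release 29 transcripts, and the promoter and transcript sequences come from RefSeq and GENCODE. Alternatives were pseudocounts of 0.1 and 1, 75th-percentile scaling, no filter and a filter of 5 FPKM, 1.5-fold, each hairpin alone, no trend, other covariates, and leaving out each library.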

Additional observations from a re-analysis of the deposited data

How the results depend on the processing

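At the 1.5-fold limit, UM-UC-3 had 1 member lower and 5637 had 1 higher, and with a pseudocount of 0.1, 1 member was higher in 5637. Among the sh-LNMAT1 libraries, the number of members higher in 5637 was 0 with a pseudocount of 0.1, with no filter, with a filter of 5 FPKM and with the hairpin as a covariate. It was 2 with UM-UC-3 sh-NC added, where 1 member was lower. With the filter of 5 FPKM, SETD1B was not among the genes tested.

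Leaving out single libraries, the members higher numbered 0 to 1 in 5637, in the pooled fit, between the lines and in the interaction. The pooled call, SETD1B at 1.04 with an adjusted p from limma of 0.046, came without UM-UC-3 sh-NC and rests on the library labelled 5637 sh-NC. In that fit 16.5% of 12822 genes were higher and 14.9% lower.

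Reversed signs, none of them past the threshold, were seen for KMT2C in the pooled fit with 75th-percentile scaling (-0.0153) and for KMT2A in the interaction with that scaling (-0.0145). Over the fits that left out 1 library each, log2 values in the pooled fit ran from -0.10 to 0.19 for KMT2B, -0.0560 to 0.0676 for KMT2C, -0.0210 to 0.50 for SETD1A, -0.14 to 1.04 for SETD1B, -0.0124 to 0.31 for RBBP5 and -0.40 to 0.0726 for DPY30. Between the lines they ran from -0.15 to 0.14 for HNRNPL, -0.12 to 0.63 for SETD1A and -0.13 to 0.0891 for ASH2L, and in the interaction from -0.16 to 0.12 for HNRNPL, -0.20 to 0.32 for KMT2A and -0.21 to 0.0778 for KMT2C.

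No pairing by replicate was possible because each group had 1 library, with no replicate numbers to pair. The hairpin shared between the lines was used as a covariate in the comparison of the lines, which pairs the sh-LNMAT1 libraries by hairpin. Of 480 recomputed values of members, 435 kept their direction and side of the threshold or moved by less than the spread between the hairpins. Part of that count was fixed in advance. Within a line, a single hairpin always lies inside that spread, and the filters cannot alter a fold change. The count is therefore no measure of how stable the values are. The cause of the differences was not tested. Depth left at least 36.6 fragments behind each member value.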
